A study of Mus musculus with 37 samples.

Results

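The genes described are the Wnt ligands, their receptors and their antagonists in cultured mouse astrocytes. A gene belonged when its platform symbol matched Wnt, Fzd, Sfrp or Dkk followed by a digit, or was Lrp5, Lrp6, Ctnnb1, Axin1, Axin2, Apc, Lef1, Tcf7l1, Tcf7l2, Nkd1, Wif1 or Porcn. That took in 50 of 18194 genes, each read through its probe set with the highest mean, and 1 further gene of the rule was not analysed here. The cells were primary astrocytes that had been grown from newborn male or female mice, either 129S4/SvJae (129) or C57BL/6J (B6), and they carried a Cdca7l plasmid or the empty pcDNA3.1-hygro vector after nucleofection and stable transfection. All 8 groups went through that procedure, so no untransfected cells were compared. Cells with the Cdca7l plasmid were measured on 4 female and 5 male arrays in 129, and on 4 female and 5 male arrays in B6. The vector had 4 female and 5 male arrays in 129, and 5 of each sex in B6. Each array carried a clone label such as 3(1), and 15 labels were shared by a Cdca7l array and a vector array of the same strain and sex. The labels do not say what the number in parentheses stands for, and the cultures are described as independent isolates. P-values measure the spread between these cultures, part of which shared a label.

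Wnt proteins are secreted lipid-modified ligands that Porcn acylates in the producing cell. They bind Frizzled receptors (Fzd), and Lrp5 or Lrp6 as co-receptors in the branch that acts through beta-catenin, the product of Ctnnb1. Apc and Axin1 hold beta-catenin in a complex that marks it for destruction, Axin2 is a feedback target of the pathway, and Lef1 and the Tcf7-like factors carry beta-catenin to DNA. In the nervous system the pathway patterns the neural tube and acts in the formation of blood vessels and in glial development.

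Values are log2 intensities. The median of the whole table, 3.19, served as the background level, and a gene was tested when its probe set exceeded it on at least 4 of the 37 arrays. The upper quartile of the values was 8.36 on the 129 female vector array 1(3) and between 9.03 and 9.51 on the other 36. On that array 11 of the 34 tested Wnt genes had their lowest value of all arrays, among them Fzd1, Fzd5, Fzd6, Lrp6 and Axin2. Xist read 2.40 on the array that is labelled 5.1(1) of the vector in B6 females, against 10.71 to 12.20 on 16 further arrays of females. This sex-linked transcript went against the array's label, and results are given below without both arrays where that changed a call. The astrocyte markers Gfap, Aqp4, Slc1a3, Aldh1l1 and Gja1 exceeded background on all arrays, while S100b did so on 13 and Gjb6 on 3. The endothelial markers Pecam1, Cdh5 and Cldn5 exceeded it on no array. Flt1, Kdr, Esam and Tek of the same list did so on 8, 4, 2 and 1 arrays. Fibroblast Col1a1, Col1a2, Foxc1, Fn1, Islr and Thy1 exceeded it on all arrays, Col3a1 on 15, Dcn on 8, Lum and Dpt on 4. Mural Pdgfrb, Acta2 and Tagln did so on all, and Myh11, Kcnj8 and Abcc9 on none. Olig1, Olig2, Cnp, Map2, Stmn2 and Cd68 also did on all, Adgre1 on 23, and Mag, Rbfox3, Dcx, Cx3cr1 and P2ry12 on none. The presence of other cell types in the cultures was not tested. Cdca7l itself averaged 12.36 to 13.07 in the plasmid groups and 7.62 to 8.53 in the vector groups, and in each strain and sex all plasmid arrays lay above all vector arrays. In bulk RNA, fewer cells of a type and less RNA per cell cannot be told apart.

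Of the 50 genes, 23 exceeded background on every array, 11 on 4 to 36 arrays, 4 on 1 to 3 arrays and 12 on none. Levels of different probe sets are not comparable with each other, so these counts describe detection and give no order among genes. Among 19 ligands, Wnt5a, Wnt5b and Wnt9a were above background on all arrays. Wnt5a and Wnt5b are best known for signalling that does not pass through beta-catenin. Wnt9a ranged from 10.95 to 12.88 over the 37 arrays, Wnt5a from 9.04 to 11.97 and Wnt5b from 7.36 to 11.75. Wnt1, Wnt2b, Wnt6, Wnt7b, Wnt8a, Wnt9b, Wnt10a, Wnt10b, Wnt11 and Wnt16 stayed below background on every array. Wnt7a, which acts on the brain's blood vessels, lay above background on 26 arrays and ranged from 1.94 to 9.16. Wnt3 did so on 6 arrays, Wnt2 on 6, Wnt3a on 4, Wnt8b on 3 and Wnt4 on 1.

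Of 12 receptors, 9 were above background on all arrays: Fzd1 to Fzd8 without exception, and Lrp6. Lrp5 was above it on 35 arrays, Fzd10 on 19 and Fzd9 on 1. Secreted antagonists of the Sfrp family bind Wnt proteins, as Wif1 does, whereas Dkk1, Dkk2 and Dkk4 block Lrp5 and Lrp6, and Dkk3 is a distant family member. Sfrp1 ranged from 10.60 to 13.85, Dkk3 from 8.25 to 12.83 and Sfrp4 from 4.63 to 8.28, all above background on every array. Sfrp2 was above it on 33 arrays, Dkk2 on 5, Wif1 on 4 and Dkk1 on 1, while Dkk4 and Sfrp5 never were. Inside the cell Ctnnb1 kept to 13.96 to 14.30 and Apc to 10.96 to 12.57. Porcn ranged from 7.36 to 9.38. Fzd10os, an RNA from the strand opposite Fzd10, met the symbol rule and exceeded background on 36 arrays.

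**Figure D1:**
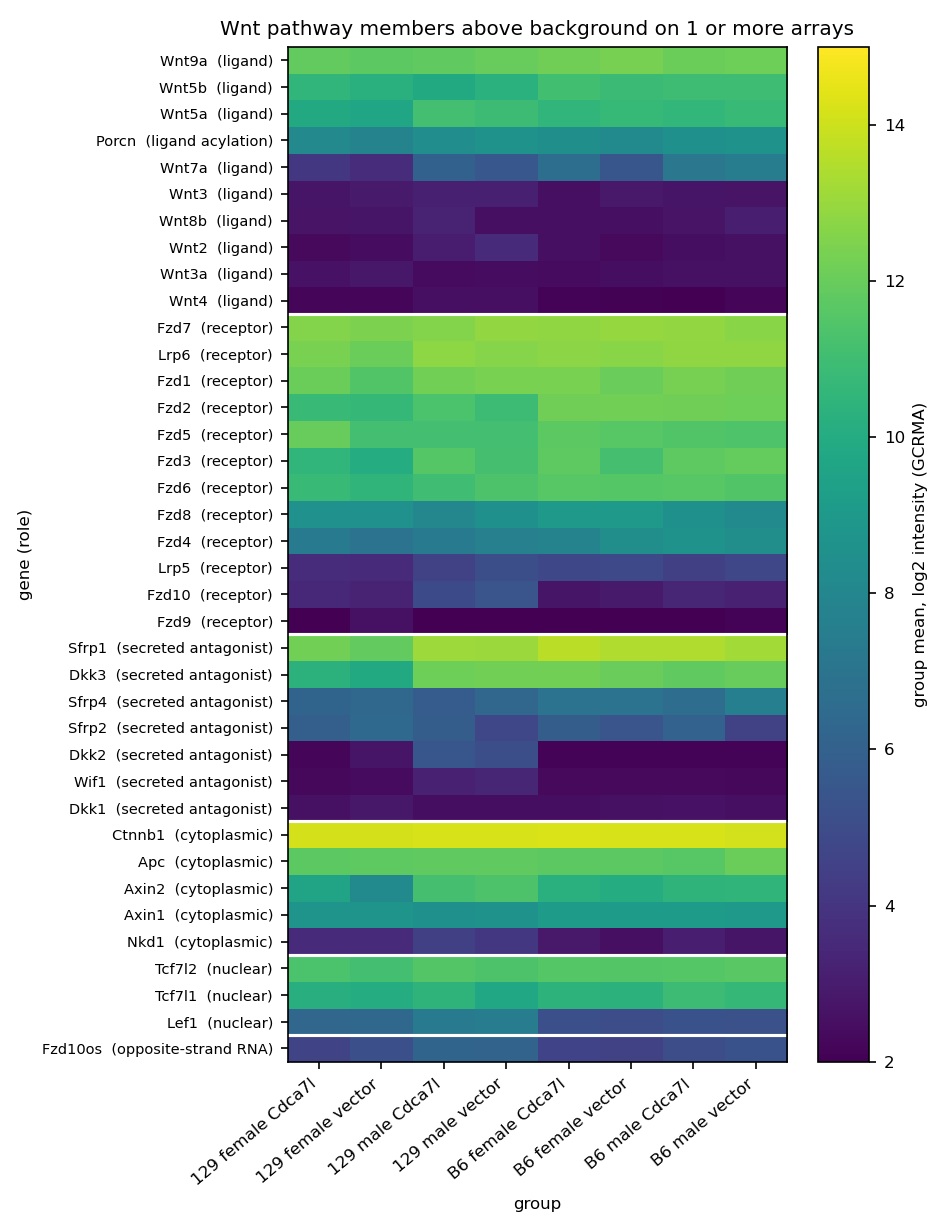
Group means (log2 intensity, colour) of the Wnt genes above background on at least 1 array, in 8 groups along the horizontal axis and ordered by role. Ctnnb1 has nearly the same colour in all groups, whereas Dkk2 and Lef1 are brighter in both 129 male groups.

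The promoters printed here belong to Lef1, Dkk2 and Axin2, which lay above all other arrays on the 129 male clone labels 3(1) and 5(1), and are shown because Lef1 and Tcf7-like factors recognise CTTTGA. RefSeq promoters (GRCm38.p6, 250 bases before and 50 after a start) were found for 32 of the 50 genes, 40 windows in all. CTTTGA or its reverse complement TCAAAG, searched on both strands, stood in 5257 of all 32851 promoters (16.0%) and in 5 of these 40. Capitals mark a match, and lower case holds none.
Lef1, chr3:131110047-131110346, plus strand: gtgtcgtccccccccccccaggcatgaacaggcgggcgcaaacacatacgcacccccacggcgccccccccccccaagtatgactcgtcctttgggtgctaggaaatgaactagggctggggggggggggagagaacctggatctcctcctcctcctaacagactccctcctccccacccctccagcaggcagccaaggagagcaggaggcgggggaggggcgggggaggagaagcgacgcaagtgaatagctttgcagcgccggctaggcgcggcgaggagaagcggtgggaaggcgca
Lef1, chr3:131156044-131156343, plus strand: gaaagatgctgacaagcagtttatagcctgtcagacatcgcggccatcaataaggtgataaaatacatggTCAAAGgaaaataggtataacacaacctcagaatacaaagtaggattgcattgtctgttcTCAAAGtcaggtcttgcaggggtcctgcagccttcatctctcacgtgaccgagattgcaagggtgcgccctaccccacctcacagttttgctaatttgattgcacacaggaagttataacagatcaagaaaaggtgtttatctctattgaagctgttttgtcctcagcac
Dkk2, chr3:132085042-132085341, plus strand: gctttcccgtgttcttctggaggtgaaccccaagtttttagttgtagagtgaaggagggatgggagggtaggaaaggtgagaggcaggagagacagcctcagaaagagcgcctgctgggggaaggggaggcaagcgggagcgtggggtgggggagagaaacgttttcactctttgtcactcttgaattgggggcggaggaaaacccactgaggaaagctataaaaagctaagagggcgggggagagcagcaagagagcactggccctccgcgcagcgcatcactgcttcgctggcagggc
Axin2, chr11:108920099-108920398, plus strand: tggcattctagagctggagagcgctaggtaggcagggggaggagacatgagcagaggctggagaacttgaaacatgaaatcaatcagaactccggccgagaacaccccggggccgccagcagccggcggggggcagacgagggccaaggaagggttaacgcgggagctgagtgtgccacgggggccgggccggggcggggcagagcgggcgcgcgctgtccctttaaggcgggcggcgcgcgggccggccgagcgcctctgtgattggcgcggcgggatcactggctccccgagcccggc
The downstream Lef1 start held 2 matches, and the Dkk2, Axin2 and first Lef1 windows held none. The other windows with a match were those of Dkk1 (2), Fzd1 (1), Wnt11 (1) and Wnt5b (1). A match describes letters in the window and is no measure of binding.

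The strain comparison asked which Wnt genes differ between 129 and B6 astrocytes. Averaged over sex and plasmid, 11 of the 34 tested Wnt genes (32.4%) passed at an adjusted p under 0.05, where 26.9% of all 12121 genes tested did so. The share is thus near that of all genes. Of the 11, 8 were lower in 129 and 3 were higher, against 16.5% of all genes lower and 10.4% higher. Over all 34 the median difference was -0.24 with 10 positive, against a median of -0.02 and 47.4% positive over all genes. Of 11 tested receptors 5 were lower and 1 was higher, of 7 ligands none passed, and of 6 secreted antagonists 2 were lower. These calls rest on the signal of the highest-mean probe set. Whether a probe set reads both strains equally well was not tested. For Fzd8 that probe set did not pass (-0.26, adjusted p = 0.55), while a further one, with a mean of 8.45, did (-1.34, adjusted p = 0.0106).

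Fzd2, a Frizzled receptor, was lower in 129 cells. Its values ran from 10.20 through a median of 10.91 to 11.60 on 18 arrays of 129, and from 11.52 through 12.30 to 12.72 on 19 arrays of B6. On 17 of the 18 arrays of 129 it lay below every B6 array, with a narrow overlap from the 129 female Cdca7l array 1(3). The difference was -1.28 ± 0.12 (SE, log2), a 2.43-fold lower signal of this probe set, with adjusted p = 2.99e-09. The same direction held in vector arrays alone (-1.40, adjusted p = 9.16e-07) and in Cdca7l arrays alone (-1.16, adjusted p = 3.97e-05). The call held without any 1 array, without both arrays in doubt and under the random replicate block. A further Fzd2 probe set, with a mean of 4.41, gave 0.17 with adjusted p = 0.786, and averaging all Fzd2 probe sets ended the call (-0.29, adjusted p = 0.261).

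Fzd6, a receptor of the planar polarity branch, was lower in 129. Its values ran from 8.94 through 11.15 to 11.46 in 129 and from 11.23 through 11.63 to 11.90 in B6, and 10 of 18 arrays of 129 lay below all of B6. The difference was -0.65 ± 0.14 (adjusted p = 0.00102). In Cdca7l arrays alone it passed as well (-0.72, adjusted p = 0.0242). Leaving out the B6 female Cdca7l array 3(3) ended that second call (adjusted p = 0.0653), as did leaving out the 129 female labels 2(1) and 4(1), with adjusted p up to 0.0876 over the alternatives. Averaging its probe sets also ended it (-0.31, adjusted p = 0.0751) and moved the difference over all arrays to -0.34, which passed (adjusted p = 0.00119).

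Fzd4, a receptor that also takes the ligand norrin, ran from 4.41 through 7.32 to 8.67 in 129 and from 6.15 through 8.50 to 9.25 in B6. The strains overlapped, with 1 array of 129 below all of B6. The difference was -1.02 ± 0.31 with adjusted p = 0.0178, and it did not pass under the random replicate block (adjusted p = 0.0614), nor without the 4 arrays of the 129 male clone labels 3(1) and 5(1) (-0.75, adjusted p = 0.104). Averaging its probe sets gave -0.20 (adjusted p = 0.412), and its other tested probe set, with a mean of 3.17, had the opposite sign (0.42, adjusted p = 0.297).

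Fzd3, which acts in axon growth, ran from 9.53 through 11.05 to 12.53 in 129 and from 9.33 through 11.94 to 12.59 in B6, so the strains overlapped over their whole range. The difference was -0.81 ± 0.28 with adjusted p = 0.0323. Leaving out any 1 of 8 arrays ended the call, with adjusted p up to 0.0602, and so did leaving out both arrays in doubt (adjusted p = 0.0659), the random replicate block (adjusted p = 0.102), testing without the filter (adjusted p = 0.0578) and leaving out the arrays of either pair of clone labels (adjusted p up to 0.257). Its 5 other tested probe sets had the same sign, and 1 of them passed. Those with the next highest means, 11.19 and 10.18, lay near no difference, at -0.06 (adjusted p = 0.718) and -0.04 (adjusted p = 0.831).

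Lrp6 ran from 11.12 through 12.68 to 12.97 in 129 and from 12.43 through 12.84 to 13.33 in B6, with 6 arrays of 129 below all of B6. Its difference was the smallest that passed, -0.31 ± 0.11 with adjusted p = 0.0304. It was no longer past the threshold without both arrays in doubt, without 129 female Cdca7l 4(1) or 2(1), or without B6 female Cdca7l 3(3). It was also lost under the random replicate block and without the arrays of either pair of clone labels, with adjusted p up to 0.111, and with its probe sets averaged (adjusted p = 0.0896). Fzd10 was the 1 receptor higher in 129. Its values ran from 2.47 through 3.57 to 8.67 in 129 and from 2.63 through 3.05 to 4.85 in B6, and 5 arrays of 129 lay above all of B6. The difference was 1.20 ± 0.42 with adjusted p = 0.0332, or 1.07 with values raised to background (adjusted p = 0.0451). It did not pass without any 1 of 4 arrays, of which 3 carried the 129 male labels 3(1) and 5(1), with adjusted p up to 0.0579. Without the 4 arrays of the 129 male clone labels 3(1) and 5(1) it was 0.45 (adjusted p = 0.179). It was also lost under the random replicate block (adjusted p = 0.0679), with array weights (adjusted p = 0.0575), without the filter (adjusted p = 0.0606) and with its probe sets averaged (0.73, adjusted p = 0.0868).

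Sfrp4 and Sfrp1, which were among the 3 secreted antagonists present on all arrays, were lower in 129. Sfrp4 ran from 4.63 through 6.26 to 7.22 in 129 and from 6.45 through 6.99 to 8.28 in B6, and 12 of 18 arrays of 129 lay below all of B6. The difference was -0.87 ± 0.18 with adjusted p = 0.000618, and it passed under each alternative tried. Sfrp1 ran from 10.60 through 13.03 to 13.42 in 129 and from 12.76 through 13.50 to 13.85 in B6. It gave -0.87 ± 0.20 with adjusted p = 0.00193, and 3 of its 4 other tested probe sets passed in the same direction. The remaining Sfrp1 probe set, with a mean of 12.54, gave -0.06 (adjusted p = 0.871). Without the 4 arrays of the 129 female clone labels 2(1) and 4(1) its difference was -0.36 (adjusted p = 0.0243). Dkk3 lay at -0.87 ± 0.33 and did not pass (adjusted p = 0.0536).

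Inside the cell, Axin1 ran from 8.02 through 8.54 to 9.44 in 129 and from 8.14 through 9.18 to 9.89 in B6. It was lower in 129, with a difference of -0.48 ± 0.15 (adjusted p = 0.0179). The strains overlapped, with 1 array of 129 below all of B6, and the call was lost under the random replicate block and without the arrays of either pair of clone labels (adjusted p up to 0.114). Nkd1, an antagonist that binds Dishevelled, ran from 2.67 through 3.50 to 6.45 in 129 and from 2.16 through 2.67 to 4.33 in B6. It was above background on 12 arrays and gave 1.12 ± 0.35 with adjusted p = 0.0176, or 0.80 with values raised to background (adjusted p = 0.0492). Under the random replicate block it did not pass (adjusted p = 0.0735), and with its probe sets averaged it was 0.33 (adjusted p = 0.0189). On 6 of 18 arrays of 129 it lay above all of B6. Ctnnb1 differed by -0.00 with a 95% interval of -0.09 to 0.09, and Apc by -0.00 with one of -0.24 to 0.24.

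Among nuclear factors, Lef1 was higher in 129. Its values ran from 5.27 through 6.25 to 11.37 in 129 and from 4.53 through 5.32 to 5.44 in B6. The B6 arrays were tightly grouped, while 14 of 18 arrays of 129 lay above all of them, some only narrowly. Outside the 129 male labels 3(1) and 5(1) and the 129 female labels 2(1) and 4(1), most 129 arrays read 5.27 to 5.53. The exceptions were 129 male vector 3(2) at 5.86 and 5(2) at 6.87. Both pairs of labels were left out singly and not together. The difference was 1.69 ± 0.45, a 3.22-fold level with adjusted p = 0.00647. Averaged with its other probe set, which was not tested on its own, it was 0.84 (adjusted p = 0.00612). Without the 4 arrays of the 129 male clone labels 3(1) and 5(1) the difference was 0.86 (adjusted p = 0.011), and without those of the 129 female labels 2(1) and 4(1) it was 1.22 (adjusted p = 0.104). Tcf7l1 lay at -0.46 ± 0.18 (adjusted p = 0.0545) and Tcf7l2 at -0.25 ± 0.13 (adjusted p = 0.14).

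None of the 7 tested ligands passed by its highest-mean probe set. Wnt9a lay at -0.33 ± 0.14 (adjusted p = 0.0754), Wnt5b at -0.72 ± 0.33 (adjusted p = 0.11) and Wnt7a at -1.87 ± 0.83 (adjusted p = 0.0927). Wnt5a lay at -0.26 ± 0.23 and Wnt3 at 0.29 ± 0.17. A further Wnt5a probe set, with a mean of 10.10, passed at -0.93 (limma, adjusted p = 0.00496). Others of Wnt5a, with means of 9.05 and 3.26, gave 0.07 and 0.41 and did not pass. In vector arrays alone 3 of the 34 genes passed, Fzd2, Sfrp4 and Sfrp1, or 8.82% against 10.2% of all genes. All 3 were lower in 129, where 6.75% of all genes were lower and 3.42% higher. The Sfrp4 call was lost without the 129 female labels 2(1) and 4(1) (adjusted p = 0.0971), and the Sfrp1 call without any 1 of 28 arrays (adjusted p up to 0.152) and under 6 of 12 other alternatives (adjusted p up to 0.127). In Cdca7l arrays alone 2 passed, Fzd2 and Fzd6, or 5.88% against 5.87%. Both were lower in 129, where 4.17% of all genes were lower and 1.71% higher. Cell type markers differed between strains as well, averaged over sex and plasmid. Of 11 tested astrocyte markers 5 were lower in 129 (median of the list -0.76), of 10 fibroblast and meningeal markers 4 were higher and 1 lower (median 1.04), and of 11 cycling genes 4 were higher (median 0.88). In that averaged comparison 10.4% of all genes were higher and 16.5% lower. Their part in the Wnt differences was not tested.

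**Figure D2:**
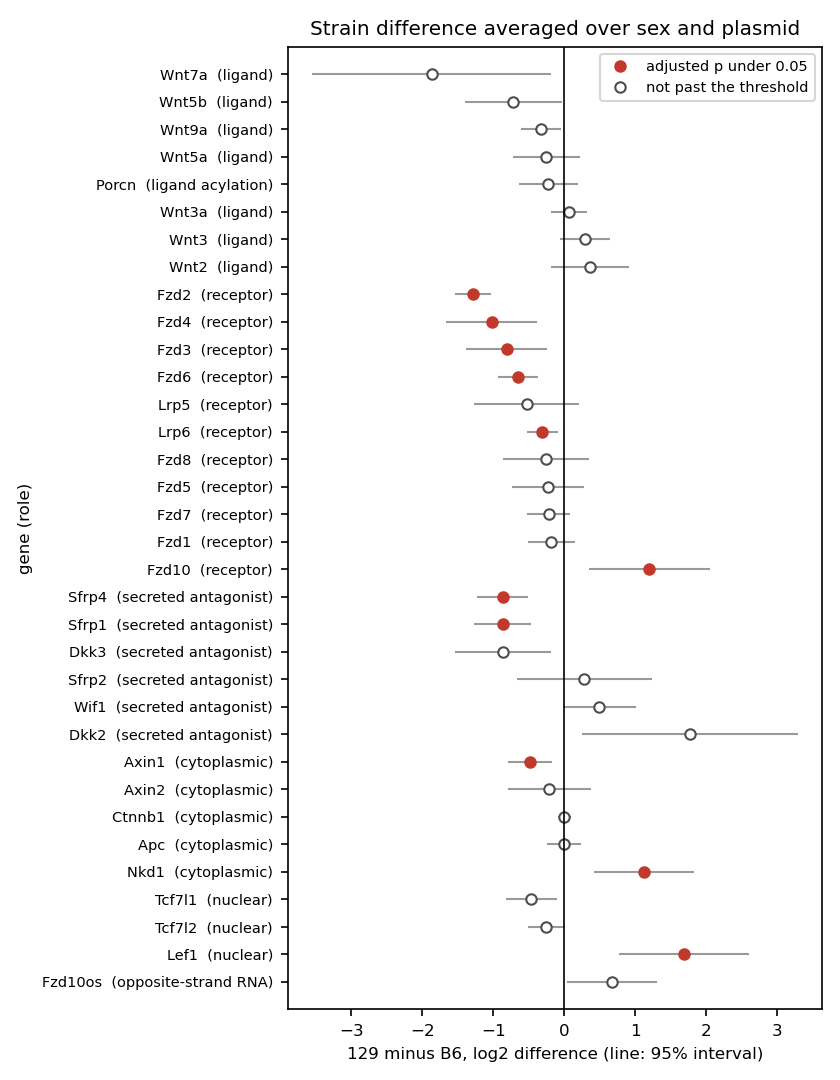
Difference between 129 and B6 (log2, averaged over sex and plasmid) of 34 Wnt genes, with its 95% interval as a line and genes past the adjusted threshold filled. Fzd2 at -1.28 has the shortest interval among differences beyond 1, while Wnt7a at -1.87 has one that spans -3.55 to -0.18.

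**Figure D3:**
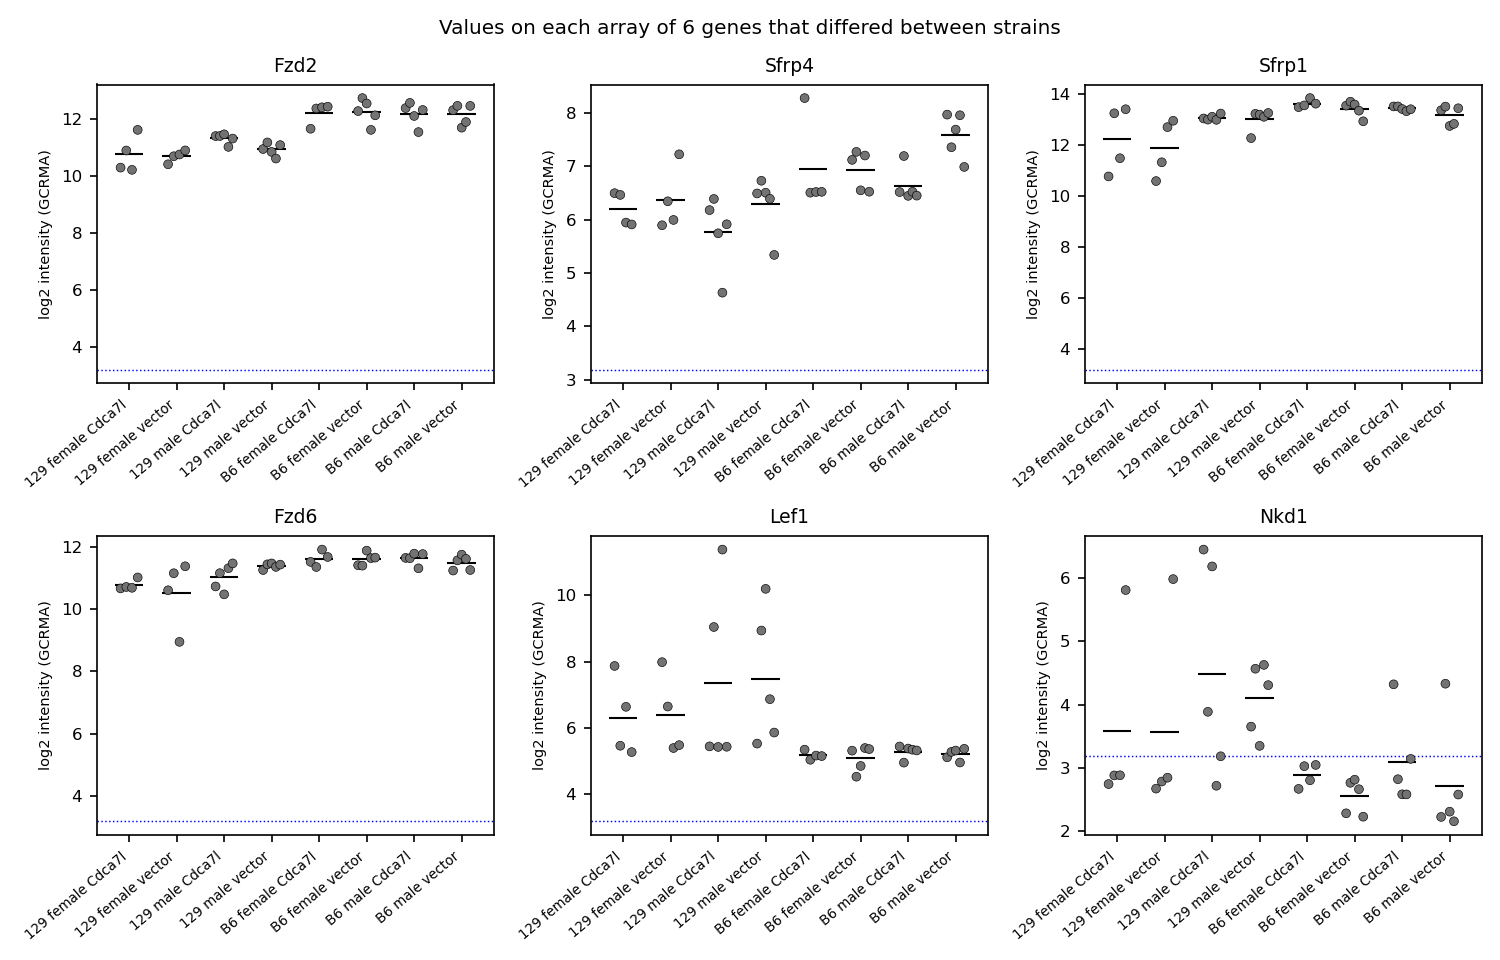
Log2 intensity on each array (point) and the group mean (bar) of Fzd2, Sfrp4, Sfrp1, Fzd6, Lef1 and Nkd1 in the 8 groups, with the background level of 3.19 dotted. Fzd2 separates the strains on nearly all arrays, while Lef1 is raised on a part of the 129 arrays.

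Other genes of the pathway were taken from 5 lists, which held 79 tested genes outside the 50. Between strains 30 of the 79 (38.0%) passed, 13 higher in 129 and 17 lower, where 26.9% of all genes passed, 10.4% higher and 16.5% lower. The counts of the 5 lists that follow stand against the same shares, and no list was tested. Around the receptors, 6 of 19 were higher and 4 lower. The R-spondin Rspo2, which strengthens Wnt signalling, was higher by 2.30 ± 0.41 and Tpbg, a membrane inhibitor, by 2.46 ± 0.43. Wls, which carries Wnt proteins to the surface, was higher by 0.55 ± 0.12, and the Wnt and BMP antagonist Sostdc1 was lower by -2.19 ± 0.48. Of 10 planar polarity genes 5 were lower and none was higher, with Vangl1 at -1.06 ± 0.21 and Daam2 at -1.93 ± 0.46. Of 18 genes known as targets in other tissues 6 were higher and 3 lower. Bmp4 lay at 2.87 ± 0.66, Plaur at 2.59 ± 0.57 and Id2 at -0.33 ± 0.09. How far these target calls depend on the clone labels is not given here. Of 13 nuclear partners 1 was higher and 3 lower, with Bcl9l at -1.19 ± 0.20. Of 19 cytoplasmic genes 2 were lower, with Cby1 at -0.57 ± 0.13. In vector arrays alone 16 of the 79 passed (20.3%, against 10.2% of all genes), and in Cdca7l arrays alone 6 did (7.59%, against 5.87%).

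Between the sexes, Axin2, which a cell with active beta-catenin signalling transcribes, was higher in males. In 129 females it read 8.85, 11.11, 7.71 and 10.77 with Cdca7l and 7.80, 8.49, 7.49 and 9.06 with vector. In 129 males it read 10.66, 12.09, 10.61, 12.08 and 10.49 with Cdca7l and 10.61, 12.19, 12.27, 11.13 and 10.61 with vector. The 129 vector groups did not overlap, and the 129 Cdca7l groups did.
In B6 females Axin2 read 8.83, 10.66, 10.68 and 10.81 with Cdca7l and 9.42, 10.42, 10.64, 10.22 and 9.45 with vector. In B6 males it read 10.30, 10.85, 9.82, 9.94 and 11.36 with Cdca7l and 11.06, 11.02, 9.45, 9.89 and 11.01 with vector. Both B6 pairs of groups overlapped. Averaged over strain and plasmid the difference was 1.35 ± 0.29, a 2.55-fold level with adjusted p = 0.0269, and it was the 1 call among 34 Wnt genes (2.94%) where 0.297% of all genes passed, 0.248% higher and 0.0495% lower.

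That call was lost under the random replicate block (1.34, adjusted p = 0.146). It was also lost without any 1 of 5 arrays, with adjusted p up to 0.0627. Those were 129 female Cdca7l 4(1) and 2(1), B6 female Cdca7l 6(3), B6 female vector 6(3) and 129 male vector 5(1). Without the 4 arrays of 129 male labels 3(1) and 5(1) the difference was 1.05 (adjusted p = 0.162), and without those of 129 female labels 2(1) and 4(1) it was 1.00 (adjusted p = 0.12). Without both arrays in doubt it was 1.30 and passed (adjusted p = 0.038). With its probe sets averaged it was 0.69 and passed (adjusted p = 0.0384).

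Of the 34 genes 25 had a positive difference, male minus female, with a median of 0.30, against 51.5% positive and a median of 0.01 over all genes. Beyond Axin2 none passed, and 7 in all had an unadjusted p under 0.05 in limma, as did 2183 of all 12121 genes. Lrp6 lay at 0.32 ± 0.11, Wnt5a at 0.65 ± 0.23, Fzd10os at 0.92 ± 0.31, Dkk3 at 0.93 ± 0.33, Fzd10 at 1.12 ± 0.42 and Fzd3 at 0.72 ± 0.28, each with adjusted p between 0.137 and 0.188. None of the other 79 pathway genes passed.

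Whether the strain difference itself differed between the sexes was tested in the same limma fit. No Wnt gene passed, and 5 of 34 had an unadjusted p under 0.05 in limma, as did 1780 of all 12121 genes. None of the 12121 genes passed either. The strain difference in males minus that in females was 2.03 ± 0.57 for Axin2 (adjusted p = 0.139), for Dkk3 2.28 ± 0.66 (adjusted p = 0.156) and for Sfrp1 1.20 ± 0.40 (adjusted p = 0.183). Wnt5a lay at 1.16 ± 0.46 and Fzd6 at 0.61 ± 0.28. Without the 129 female Cdca7l array 1(3), 3 Wnt genes passed. With array weights 7 passed. The shares of all genes under these settings are not given here.

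The Cdca7l comparison asked what the plasmid changed in each strain and sex. No Wnt gene passed in limma, averaged or within any group, and 0.0165% of all genes (2, Cdca7l and Dnah11) passed in the averaged comparison. At an unadjusted p under 0.05 there was 1 Wnt gene in the averaged comparison, 1 in 129 females, 2 in B6 males and none in 129 males or B6 females. Of all 12121 genes, 135, 183, 207, 158 and 56 had such a p, in that order. Over the 34 genes the averaged median was 0.01, against 0.02 over all genes.

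Sfrp4 had the smallest unadjusted p, at -0.41 ± 0.18 with a 95% interval of -0.77 to -0.04 (limma, adjusted p = 0.999). In B6 males it read 6.52, 7.19, 6.45, 6.52 and 6.45 with Cdca7l and 7.97, 7.36, 7.69, 7.96 and 6.99 with vector. These groups overlapped by 1 Cdca7l array, 4(3), and the difference was -0.97 ± 0.34. In 129 males it was -0.52 ± 0.34, and -0.23 without Cdca7l 5(1). Apc in B6 males lay at -0.47 ± 0.23.

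Axin2 in 129 females, with the values given above, lay at 1.40 ± 0.61 for Cdca7l minus vector, with a 95% interval of 0.16 to 2.65 and overlapping groups, and at 0.90 without Cdca7l 2(3). Tcf7l1 in 129 males lay at 0.65 ± 0.34 and Fzd5 in 129 females at 0.87 ± 0.53. Without the 129 female vector array 1(3), which read 8.35 for Fzd5 where the other vector arrays of that group read 11.97 to 12.14, Fzd5 lay at -0.05. Sfrp2 lay at 1.56 ± 0.89 in B6 males, from 1.01 without vector 2(2) or 5.6(1) to 2.48 without Cdca7l 2(2). In 129 males it lay at 1.06 ± 0.89, and at 0.48 without vector 3(2).

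The 95% intervals of the averaged difference, not adjusted for the number of probe sets, show how precisely it was measured. Passing the adjusted threshold asked for a larger difference than such an interval shows. For Ctnnb1 the interval ran from -0.06 to 0.12, for Lrp6 from -0.10 to 0.33 and for Fzd2 from -0.15 to 0.36. For Wnt9a it ran from -0.31 to 0.25 and for Fzd7 from -0.32 to 0.29. For Lef1 it ran from -0.92 to 0.90 and for Wnt7a from -1.21 to 2.16. Changes of that size were not detectable for them in this fit, which did not pair arrays by clone label. The median gap between Cdca7l and vector arrays of the same label was 0.11 for Lef1 and 0.64 for Wnt7a. Between arrays of other labels it was 0.42 and 1.93, and paired intervals are not given here. Neither the difference of the Cdca7l effect between sexes nor that between strains passed for any Wnt gene, and none had an unadjusted p under 0.05 in limma. Of all 12121 genes, 57 and 86 had such a p between sexes and between strains. Among Wnt genes the smallest p of each comparison belonged to Sfrp4 (-0.67 ± 0.35 in males against females) and Ctnnb1 (-0.10 ± 0.09 in 129 against B6).

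Wnt gene levels were closer between arrays that shared a clone label than between others. Of 34 genes, 28 had a smaller median gap between a Cdca7l and a vector array of the same label (15 pairs) than between arrays of other labels in the same strain and sex (71 pairs). For Axin2 the gaps were 0.25 and 1.07, for Wnt7a 0.64 and 1.93, for Dkk3 0.31 and 0.90 and for Lef1 0.11 and 0.42. These pairs share arrays, so they are given as a description, and the count over all genes is not given. Over all tested probe sets the correlation within clone labels was 0.409, so closeness by label was not limited to Wnt genes. The labels described next, and the genes Dkk2, Wif1, Dcn and Lum, were singled out after their values were seen and carry no test.

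On the 4 arrays of the 129 male labels 3(1) and 5(1), 5 Wnt genes lay above all 33 other arrays: Lef1, Dkk2, Fzd10, Wif1 and Axin2. How many of all genes did so is not given here, so the count does not single out Wnt genes. Dkk2 read 10.62 and 10.38 with Cdca7l and 9.93 and 9.32 with vector. On the other 33 arrays it exceeded background once, at 4.34 on 129 female vector 2(1).
Lef1 read 9.04 and 11.37 with Cdca7l and 8.94 and 10.19 with vector on these arrays. Fzd10 read 6.26 to 8.67 and Wif1 3.76, 5.45, 5.44 and 4.61. The Axin2 values of 12.09, 12.08, 12.19 and 12.27 were its 4 highest.
Some female arrays of both strains read below background for Wnt7a, from 2.34 to 3.02. On the 4 arrays of the 129 male labels Wnt7a stayed below background too, at 2.37, 2.35, 2.14 and 1.94. The other 6 arrays of 129 males read 7.51 to 9.16. The fibroblast and meningeal markers, taken as the mean of 10 genes centred over all arrays, stood at 2.97 to 3.41 on these arrays and at 1.48 or less elsewhere. Decorin (Dcn) read 14.06 to 14.30 there and 8.84 or less elsewhere, and lumican (Lum) 9.12 to 9.87 against 2.93 or less. The part of those markers in the Wnt values was not tested.

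On the 4 arrays of the 129 female labels 2(1) and 4(1), Dkk3 and Sfrp1 lay below all 33 other arrays. The matching count over all genes is not given either. Dkk3 read 8.94 and 8.25 with Cdca7l and 8.57 and 8.81 with vector. Sfrp1 read 11.49 and 10.78 with Cdca7l and 11.33 and 10.60 with vector. Lef1 was 6.64, 7.87, 6.65 and 7.98 on them, above every B6 array.
The 11 cycling genes, averaged in the same way, stood at 2.30 to 3.03 on these arrays and at 0.91 or less elsewhere. The 12 astrocyte markers stood at -2.46 to -1.27 and at -0.83 or more elsewhere, with Gfap at 10.02 to 11.66. Their part in the Wnt values was not tested.

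**Figure D4:**
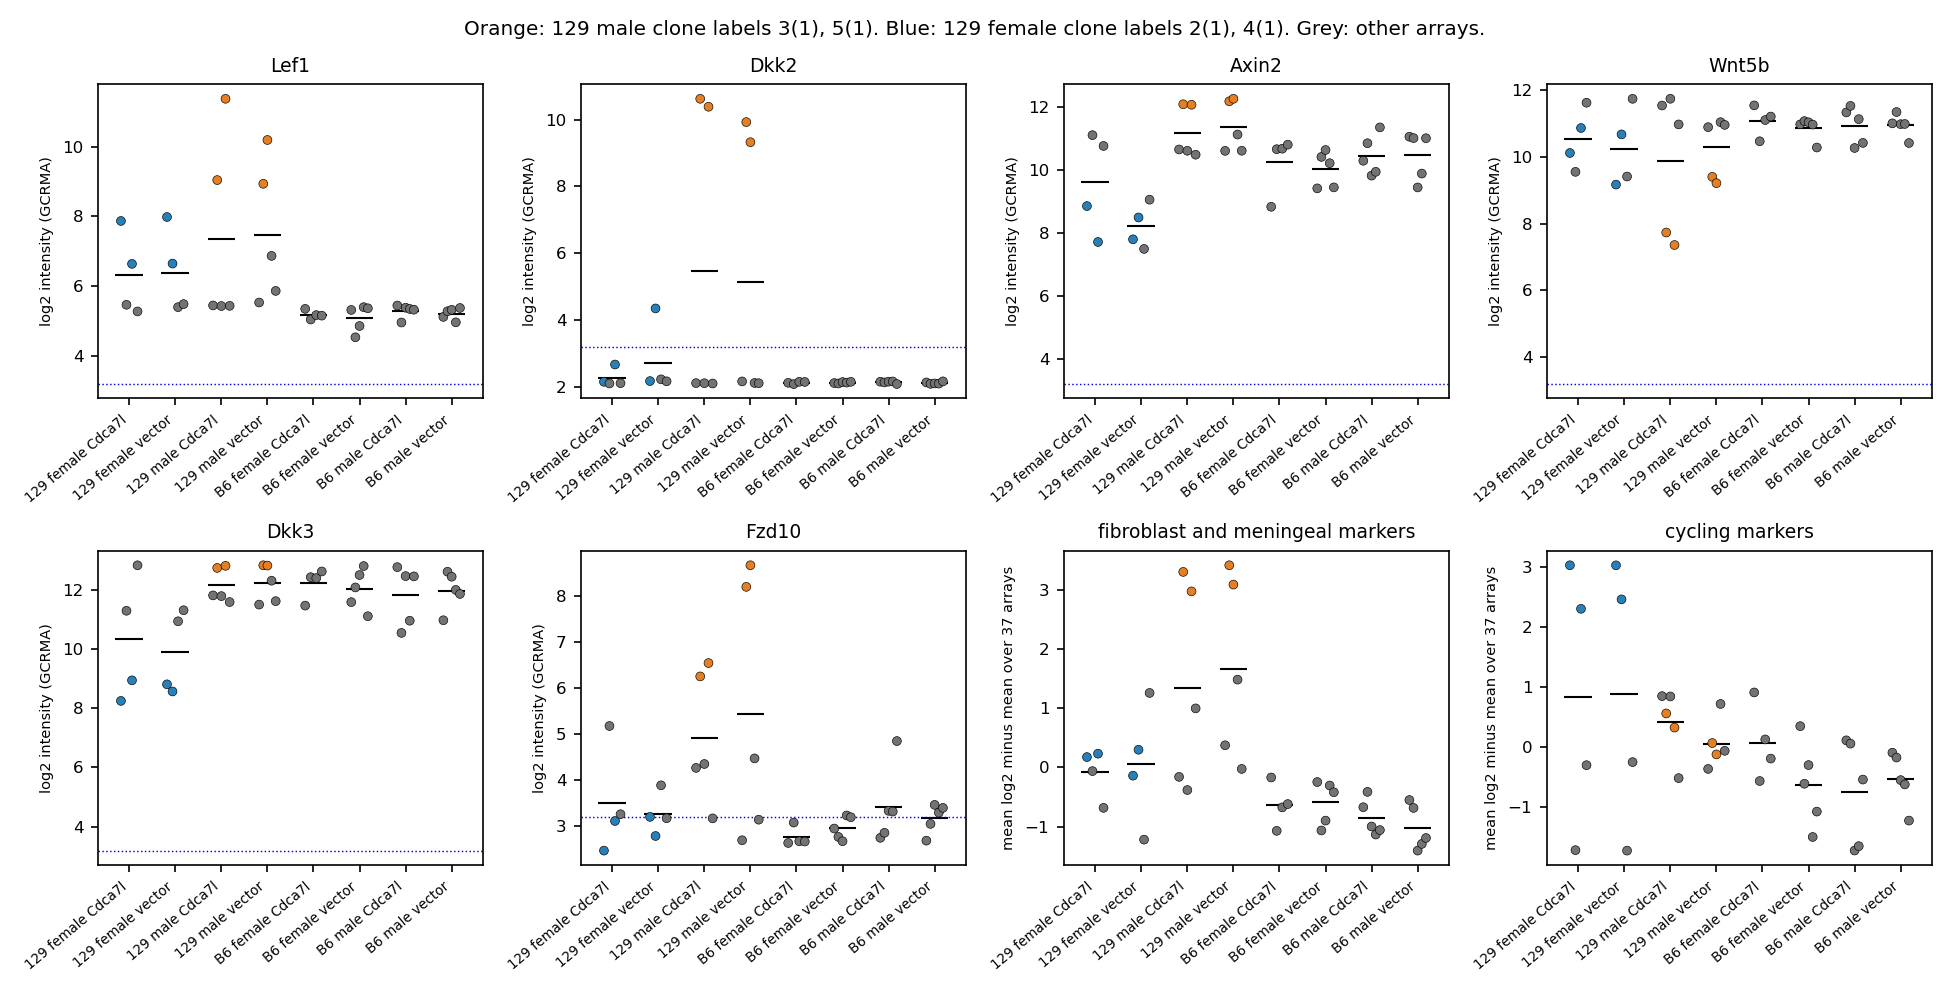
Log2 intensity on each array (point) and the group mean (bar) of Lef1, Dkk2, Axin2, Wnt5b, Dkk3 and Fzd10, and the centred mean of the fibroblast and meningeal markers and of the cycling genes, in the 8 groups. Orange marks the 129 male clone labels 3(1) and 5(1), where Dkk2 reads 9.32 to 10.62, and blue the 129 female labels 2(1) and 4(1), where Dkk3 reads 8.25 to 8.94.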

How the data were processed

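RNA of 37 cultures was measured on 37 arrays of 45101 probe sets. The authors deposited log2 values, made with GCRMA in Partek 6.5 according to the submitters' processing notes, which were used unchanged. Genes were named from the platform annotation: 34958 probe sets carried 1 symbol, 932 several and 9211 none. After 64 control probe sets were left out, 25579 exceeded the table median on at least 4 arrays and were tested, while 19458 did not. A linear model with 8 group means and 29 residual degrees of freedom was fitted in limma 3.58.1 under R 4.3.3, with Benjamini-Hochberg adjustment over all tested probe sets, and all adjusted p-values are from it. Genes past an adjusted p of 0.05 in any of 12 comparisons, the 5 smallest p of each and the 3 of highest mean per role were named. The members, lists and tests were chosen with earlier results of these data known. On simulated data for the strain comparison over 25579 probe sets, 56.7% of log2 changes of 1 and 91% of changes of 2 were recovered. For Cdca7l minus vector the shares were 59.7% and 92.5% averaged over groups, but 26.9% and 46.3% in 129 females alone. The simulated arrays were independent of each other, whereas 30 of the 37 real arrays shared a clone label, which the simulation left out.

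Shared clone labels were checked as pairs. Deviations from the group means correlated at 0.432 to 0.775 in B6 females and 0.376 to 0.572 in B6 males, so labels pair those arrays. They ran from 0.061 to 0.716 in 129 females and from -0.0887 to 0.623 in 129 males. In each, 3 of 4 labels correlated at 0.416 or more and 1 fell under 0.1, so not every label pairs its arrays there. The random replicate block spans all labels. The alternatives covered the filter, variance prior, normalization, array weights, replicate blocks, probe set averaging, the groups fitted, a floor at background and arrays left out.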

Additional observations from a re-analysis of the deposited data

Results flagged for a closer look

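Of 217 groups of 4 or 5 arrays examined over the 28 named Wnt genes, 30 held 1 array whose gap to the nearest other array was large for the group's range (Dixon's 95% critical value). Chance marks about 1 in 20 groups. Among arrays of 129 female Cdca7l, Fzd10os at 3.16 on 4(1) (others 5.04 to 5.39) was low. The 129 female Cdca7l group had high values of Fzd6 at 11.01 on 1(3) (others 10.66 to 10.71), Nkd1 at 5.81 on 1(3) (others 2.75 to 2.89) and Wnt7a at 9.01 on 1(3) (others 2.36 to 2.62). In 129 female vector arrays, Fzd1 at 9.83 on 1(3) (others 12.02 to 12.09), Fzd5 at 8.35 on 1(3) (others 11.97 to 12.14) and Sfrp2 at 4.18 on 1(3) (others 7.04 to 7.43) were low. High in the 129 female vector group were Fzd3 at 11.26 on 2(3) (others 9.53 to 9.74) and Nkd1 at 5.99 on 2(3) (others 2.67 to 2.85). Among arrays of 129 male Cdca7l, Tcf7l2 at 10.98 on 3(1) (others 11.55 to 11.71) was low. The 129 male Cdca7l group had high values of Fzd4 at 8.62 on 3(2) (others 6.71 to 7.23). In 129 male vector arrays, Sfrp1 at 12.28 on 3(3) (others 13.12 to 13.27) and Sfrp4 at 5.34 on 3(2) (others 6.39 to 6.73) were low. High in the 129 male vector group was Axin1 at 9.44 on 3(3) (others 8.32 to 8.64). Among arrays of B6 female Cdca7l, Axin2 at 8.83 on 6(3) (others 10.66 to 10.81), Fzd10os at 3.31 on 6(3) (others 4.98 to 5.07), Fzd2 at 11.64 on 6(3) (others 12.35 to 12.41) and Fzd4 at 6.15 on 6(3) (others 8.19 to 8.51) were low. The B6 female Cdca7l group had high values of Sfrp4 at 8.28 on 6(3) (others 6.51 to 6.52). In B6 female vector arrays, Wnt5b at 10.29 on 2.1(1) (others 10.98 to 11.08) was low. High in the B6 female vector group was Wnt3 at 4.17 on 2.1(1) (others 2.44 to 2.64). Among arrays of B6 male Cdca7l, Fzd3 at 10.84 on 4(3) (others 11.85 to 12.15), Lef1 at 4.96 on 4(3) (others 5.32 to 5.44), Porcn at 7.43 on 4(3) (others 8.60 to 9.03) and Sfrp2 at 2.43 on 2(2) (others 6.74 to 7.29) were low. The B6 male Cdca7l group had high values of Fzd10 at 4.85 on 3(5) (others 2.74 to 3.33) and Sfrp4 at 7.19 on 4(3) (others 6.45 to 6.52). In B6 male vector arrays, Lrp6 at 12.43 on 4(3) (others 12.86 to 13.02) was low. High in the B6 male vector group were Fzd1 at 12.61 on 2(4) (others 12.01 to 12.16) and Nkd1 at 4.33 on 2(4) (others 2.16 to 2.58).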

How the results depend on the processing

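Alternatives were tried for 12 comparisons, and 3 were chosen after seeing the data: leaving out the 4 arrays of the 129 male clone labels 3(1) and 5(1), leaving out those of the 129 female labels 2(1) and 4(1), and gene-by-gene array weights. Limma's default array weights stopped before they converged, and both sets of weights had been seen when the default was kept as the planned one. Counts of Wnt genes called between strains, averaged, moved from 11 to 5 under the random replicate block, to 7 without the 129 male labels, to 7 without the 129 female labels and to 20 with gene-by-gene weights, and ran from 9 to 14 with each array left out in turn. The 5 genes called under the block and the 7 without the 129 female labels were among the 11, as were 6 of the 7 without the 129 male labels. Between strains in vector arrays the count moved from 3 to 9 with array weights and 17 with gene-by-gene weights (2 to 7 with each array left out). In Cdca7l arrays it moved from 2 to 13 and 14 with these weights, to 1 with probe sets averaged per gene and to 1 without the 129 female labels (1 to 4 with each array left out). Between sexes it moved from 1 to 7 and 14 with the weights, and to 0 under the random replicate block, without the 129 male labels and without the 129 female labels (0 to 2 with each array left out). For the difference of the strain effect between sexes it moved from 0 to 7 and 10 with the weights (0 to 3 with each array left out). For Cdca7l it moved from 0 to 2 in 129 males and 1 in B6 males with gene-by-gene weights, and stayed at 0 with each array left out. The weights also raised the share of all genes called between strains from 26.9% to 50.4% and 60.2%, and the cause was not tested. For the other counts in this paragraph the share of all genes is not given, so they do not single out Wnt genes. No fixed replicate block was possible for comparisons between strains or sexes, since a label lies in 1 strain and sex.

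Signs turned in 15 of 3233 values of named genes. In 129 females, Cdca7l minus vector was -0.052 for Fzd5 and -0.0186 for Lrp6 without both arrays in doubt and also without 129 female vector 1(3) alone, and ran up to 1.21 and 0.523 with other arrays left out. There Lrp6 was -0.105 and -0.0856 with the default and gene-by-gene weights, Fzd3 -0.24 with the default and Axin2 -0.26 with gene-by-gene weights. In B6 females Fzd4 was 0.0754 and 0.0747 with them, and Wnt7a was -0.20 with the fixed replicate block. For the Cdca7l effect in 129 minus that in B6, Fzd2 was -0.0404 and -0.0862, and Axin2 -0.69 and -0.93, with the default and gene-by-gene weights. None of these had passed in the fit as reported. Precision is limited by how many arrays a group has and how far a probe set lies above background.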
